A study of Sus scrofa with 599 samples.

Results

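The HOXB cluster is the run of homeobox genes on pig chromosome 12, and its 10 members considered here were HOXB1 to HOXB9 and HOXB13, chosen by gene symbol and not by any measured value. Of these, 9 had a row among the 21280 protein-coding genes (PCGs) of the expression tables, and HOXB9 had none under that symbol. The data came from 4 adipose tissues (ATs) of Bama pigs, a miniature breed from China, all adult females: the greater omentum (GOM), mesenteric AT (MAD) and retroperitoneal AT (RAD), which are visceral, and the upper layer of backfat (ULB), which is subcutaneous. A normal diet was given to the NC pigs and a prolonged high-fat diet to the WG pigs, and the WL pigs had been fed that same high-fat diet and then received severely restricted calories. RNA-seq libraries numbered 9, 12, 12 and 5 from GOM, MAD, RAD and ULB in NC, 45, 36, 39 and 38 in WG, and 10 per AT in WL. Hi-C maps of 240 samples and H3K27ac ChIP-seq of 73 samples, pooled by the authors into 18 tables, covered the same ATs. RNA came from bulk tissue, so fewer cells of a type and less RNA per cell cannot be told apart. For Hi-C, nuclei came from the floating layer of fat cells after centrifugation, so the Hi-C and RNA samples need not hold the same mix of cells. Each pig gave all of the ATs. Libraries of different ATs therefore share pigs, while no source used here links a library to its pig, and the tests between ATs treat libraries as independent unless a replicate block is named.

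HOX genes encode transcription factors that bind DNA through a homeodomain and give cells of the embryo their position along the head-to-tail axis. They lie in clusters, and within a cluster the order along the chromosome follows the order of expression along the body, with the genes at the 3′ end active toward the head and those at the 5′ end toward the tail. Fibroblasts and adipose progenitors keep part of this code in the adult, so that fat from different parts of the body carries different sets of HOX transcripts.

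In the Sscrofa11.1 assembly, RefSeq places 8 of the 9 measured members on the minus strand of chromosome 12, and HOXB4 had no entry in the annotation used here. The span of 166.0 kb opens with HOXB1 (chr12:24784953-24786377) and runs through HOXB2 (chr12:24796786-24800499), HOXB3 (chr12:24803119-24827557), HOXB5 (chr12:24845224-24849639), HOXB6 (chr12:24849741-24853494), HOXB7 (chr12:24861165-24864675) and HOXB8 (chr12:24865985-24879706). HOXB13 stands apart at chr12:24948307-24950661, beyond a stretch with no other member that has a position. MIR10A (chr12:24833644-24833723) and MIR196A-1 (chr12:24886316-24886395), microRNA genes embedded in the cluster, were not analysed here.

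The 200 bases just before the RefSeq start of HOXB5 and HOXB6 are shown on the minus strand, 5′ to 3′, because HOXB6 had the widest spread between groups and because these starts lie where the acetylated domain described further on varied in extent. Capitals mark matches on either strand to the core letters of the TATA box (TATAAA), the box named CCAAT, the GC box (GGGCGG) or a joint site of HOX and PBX proteins (TGATTNAT).
HOXB5, chr12:24849640-24849839: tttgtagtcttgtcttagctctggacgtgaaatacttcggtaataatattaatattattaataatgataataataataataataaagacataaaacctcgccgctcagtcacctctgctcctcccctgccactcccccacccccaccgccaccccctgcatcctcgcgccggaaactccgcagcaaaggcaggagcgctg
HOXB6, chr12:24853495-24853694: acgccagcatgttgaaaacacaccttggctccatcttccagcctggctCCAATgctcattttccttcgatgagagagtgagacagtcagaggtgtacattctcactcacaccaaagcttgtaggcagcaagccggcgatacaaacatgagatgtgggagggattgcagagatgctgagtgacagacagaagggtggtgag
The HOXB6 stretch held 1 CCAAT, and the HOXB5 stretch held no match to these 4 motifs. Over 19569 PCG stretches of the same length, 7.69% held the TATA letters, 27.7% held CCAAT, 43.7% held the GC box and 1.61% held the joint site on either strand. The CpG dinucleotides numbered 10 for HOXB5 and 4 for HOXB6, against a median of 10 over all stretches, and the GC content was 47.5% and 51.0% against a median of 59.0%.

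Libraries held 3337098 to 22939419 estimated counts on PCGs, with a median of 16791659. The share of TPM that fell on PCGs ranged from 65.6% to 96.9% and was below 88% in 7 of 9 NC GOM libraries, in 2 to 6 libraries of each other NC group and of each WL group, and in 0 to 3 of each WG group. Within WG the libraries were divided into 2 sets by a cut chosen on this share, at about 94%. The share ran across the cut without a clear gap, and no label names the division. WG GOM replicate 35 was the shallowest library and stood apart within the cluster, with HOXB7 listed at 0 and 6 other members at their highest level in any library. The summed TPM of 8 adipocyte markers had medians from 7485 in NC GOM to 22420 in WL ULB, so that the libraries of each AT carried the defining transcripts of fat cells.

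HOXB7, from the middle of the cluster, had the highest median TPM of the members in each of the 12 groups. In NC it ranged from 16.3 to 32.6 TPM in GOM with a median of 22.3, from 18.8 to 36.6 in MAD with a median of 26.2, and from 15.3 to 26 in RAD with a median of 19.7. The 5 NC ULB libraries held 7.09, 10.5, 10.6, 14.7 and 16.5 TPM, so ULB overlapped only the low end of the visceral ATs. The WG medians were 26.3, 24.8, 18.5 and 11.7 TPM in GOM, MAD, RAD and ULB. In WL they were 23.4, 25.1, 19.8 and 13 TPM. All 4 ATs therefore carried HOXB7, and in each diet the lowest median was that of ULB. HOXB7 was 2.01-fold lower in ULB than in GOM in NC (log2 fold change -1.01 ± 0.221 SE, edgeR quasi-likelihood test with Benjamini-Hochberg adjustment, adjusted p = 0.00274, with 12.1% of genes lower), 2.06-fold lower in WG (10.3% of genes lower) and 1.77-fold lower in WL (9.81%). It was also lower in ULB than in RAD, by 1.84-fold in NC (adjusted p = 0.0188, 1.40% of genes lower), 1.63-fold in WG (1.59e-10, 4.07%) and 1.61-fold in WL (0.00236, 2.05%), all by the same test. Between GOM and RAD it passed the threshold in no diet, and its log2 fold changes in NC, WG and WL were -0.13, -0.33 and -0.13.

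HOXB6, which lies next to HOXB7, showed the widest spread between groups, 2.72 on the log2(TPM + 1) scale between the highest and the lowest of the 12 group means. In NC, GOM ranged from 6.72 to 19.4 TPM with a median of 14.9, MAD from 11.7 to 26.1 with a median of 19.5, and RAD from 2.94 to 12.8 with a median of 7.27. The 5 NC ULB libraries held 1.90, 2.33, 2.70, 3.06 and 3.20 TPM. Each NC ULB library was below every NC library of GOM and MAD, and 3 of the 5 were below the lowest RAD library. The medians in GOM, MAD, RAD and ULB were 21.3, 15.4, 9.39 and 4.24 TPM in WG and 20.2, 16.3, 10.4 and 6.05 TPM in WL. From GOM to ULB, HOXB6 was 5.51-fold lower in NC (log2 fold change -2.46 ± 0.291 SE, edgeR adjusted p = 1.24e-05), 4.69-fold lower in WG (-2.23 ± 0.145, 2.72e-24) and 3.72-fold lower in WL (-1.90 ± 0.181, 4.28e-08). The fold from MAD to ULB in NC was 7.13 (edgeR adjusted p = 1.31e-07). RAD stood between the other visceral ATs and ULB. From RAD to ULB HOXB6 in NC, WG and WL changed by -1.60 ± 0.290, -0.90 ± 0.126 and -0.87 ± 0.181 on the log2 scale (SE), with edgeR adjusted p-values of 0.00198, 1.09e-08 and 0.00364.

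**Figure D1:**
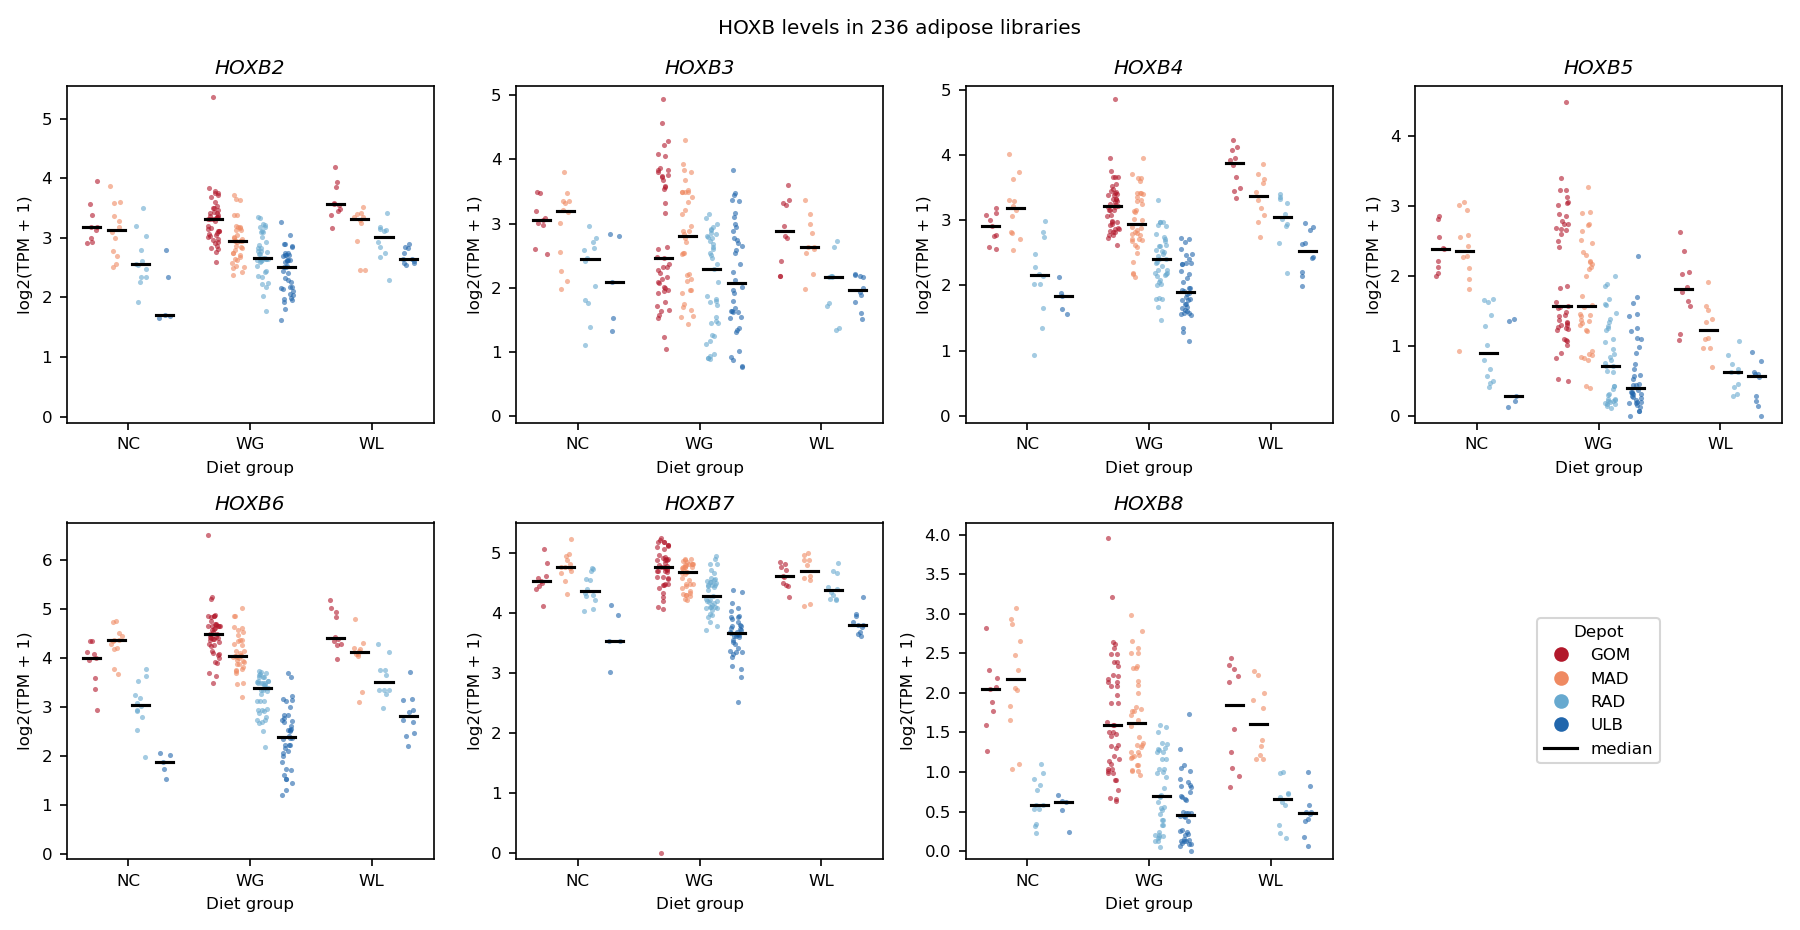
Level of each tested HOXB member by AT and diet, as log2(TPM + 1). Points are single libraries and bars are group medians. HOXB7 has the highest median in each group, and the medians in ULB are below those in GOM for each of the 7 members.

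HOXB2, HOXB3 and HOXB4 lie toward the 3′ end. HOXB2 and HOXB3 pattern the hindbrain, and HOXB4 is known for promoting the expansion of blood stem cells. HOXB2 in NC ranged from 6.52 to 14.5 TPM in GOM (median 8.09), from 4.71 to 13.7 in MAD (7.80) and from 2.80 to 10.3 in RAD (4.90). The 5 NC ULB libraries held 2.14, 2.21, 2.26, 4.09 and 5.98 TPM. The NC ULB libraries lay below all of GOM, while RAD reached into both. The WG medians of HOXB2 were 8.96, 6.71, 5.35 and 4.69 TPM in the same order of ATs, and the WL medians 10.8, 9.0, 7.13 and 5.26 TPM. From GOM to ULB, HOXB2 was 2.71-fold lower in NC, 1.96-fold lower in WG and 2.12-fold lower in WL (edgeR adjusted p = 0.0017, 9.49e-11 and 2.3e-06).

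HOXB4 had its lowest median in ULB in each diet, with GOM highest in WG and WL and MAD highest in NC. Its medians in GOM, MAD, RAD and ULB were 6.54, 8.13, 3.46 and 2.56 TPM in NC, 8.33, 6.73, 4.27 and 2.73 TPM in WG, and 13.7, 9.33, 7.30 and 4.81 TPM in WL. The 5 NC ULB libraries held 1.94, 2.13, 2.56, 2.68 and 3.38 TPM, below the lowest NC GOM library at 4.88 TPM. From GOM to ULB its log2 fold changes in NC, WG and WL were -1.42, -1.44 and -1.43, or 2.67-fold, 2.72-fold and 2.69-fold lower (edgeR adjusted p = 0.00114, 6.53e-20 and 1.41e-06).

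HOXB3 varied widely between the libraries of a group. In WG GOM it ranged from 1.07 to 29.6 TPM with a median of 4.50, and in WG ULB from 0.705 to 13.2 with a median of 3.21. Its medians in NC were 7.28, 8.15, 4.44 and 3.24 TPM from GOM to ULB, and in WL 6.41, 5.22, 3.47 and 2.91 TPM. The groups overlapped in NC and WG, while in WL the highest ULB library, at 3.62 TPM, was just above the lowest GOM library at 3.54 TPM. From GOM to ULB its log2 fold changes in NC, WG and WL were -1.08, -0.77 and -1.19 (edgeR adjusted p = 0.0321, 0.00549 and 0.000248).

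HOXB5, which takes part in the development of the enteric nervous system and of blood vessels, and HOXB8, which acts in blood progenitors and microglia, were the lowest of the measured members that were tested. HOXB5 had medians of 4.23, 4.12, 0.875 and 0.219 TPM in NC, 1.97, 1.96, 0.639 and 0.321 TPM in WG, and 2.51, 1.36, 0.542 and 0.486 TPM in WL, from GOM to ULB. The 5 NC ULB libraries held 0.0909, 0.156, 0.219, 1.56 and 1.62 TPM, all below the lowest NC GOM library at 3.01 TPM. HOXB8 had medians of 3.14, 3.53, 0.499 and 0.532 TPM in NC, 2.02, 2.08, 0.623 and 0.376 TPM in WG, and 2.66, 2.08, 0.577 and 0.399 TPM in WL. Both had medians below 1 TPM in RAD and ULB and above 1 TPM in GOM and MAD.

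A gene was tested when it exceeded 0.5 TPM in at least 80% of the libraries of either group compared. HOXB5 and HOXB8 met this in 6 of the 12 groups, all of them GOM or MAD, so they entered a comparison only through the AT where they were high, and their calls against RAD and ULB had to show a difference. With that limit, HOXB5 was lower in ULB than in GOM by 6.04-fold in NC, 5.48-fold in WG and 6.62-fold in WL, and HOXB8 by 7.05-fold, 5.28-fold and 5.79-fold. HOXB2, HOXB3, HOXB4, HOXB6 and HOXB7 met the limit in all 12 groups.

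The outermost members were close to absent. HOXB1, the most 3′ gene and a hindbrain patterning factor, was above 0 in 8 libraries of the whole set, with at most 2.98 estimated counts and 0.564 TPM. HOXB13, the most 5′ gene and a factor of prostate development, was above 0 in 28 libraries, with at most 4.75 estimated counts and 0.261 TPM. Their medians were 0 in all 12 groups, neither met the limit in any group, and neither was tested. A count of 0 allows up to 3 counts in a library, so most of these values could not be told from 0.

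Over the 18 comparisons between ATs within a diet, 120 tests of the 7 members were made, and 76 passed an adjusted p below 0.05 with a fold change above 1.5. All 76 were lower in the second AT of the order GOM, MAD, RAD and ULB, the direction in which 6.36% of all tests over all genes passed and against 11.3% that passed in either direction. Each group enters 3 of these comparisons, so calls share libraries. The 5 members detected in all groups accounted for 52 of their 90 tests. By gene, 8 of 18 tests passed for HOXB2, 10 of 18 for HOXB3, 11 of 18 for HOXB4, 14 of 18 for HOXB6 and 9 of 18 for HOXB7, beside 12 of 15 each for HOXB5 and HOXB8. The calls were spread evenly over diets, with 25 of 40 in NC, 26 of 40 in WG and 25 of 40 in WL. For the 5 members detected in all groups they numbered 17, 18 and 17 of 30.

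The number of calls depended on the pair of ATs. Between GOM and MAD, 0 of 21 tests passed by edgeR (10.0% of all tests passed for this pair), 8 of 21 had an unadjusted p below 0.05 and DESeq2 called 1. In WG, HOXB2 and HOXB6 were lower in MAD with edgeR adjusted p-values of 0.00441 and 0.00705, at folds of 1.35 and 1.33 that stayed under the limit. Between RAD and ULB, 6 of 15 tests passed (2.49% of all tests were lower in ULB), which were HOXB6 and HOXB7 in each diet, and HOXB6 was 3.03-fold lower in ULB in NC. For the other members of that pair the log2 differences had wide intervals, such as -0.23 for HOXB3 in NC with a 95% interval from -1.09 to 0.62. A p that misses the threshold does not show that levels were alike.

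From GOM to RAD, 18 of 21 tests passed (8.28% of all tests were lower in RAD), the exceptions being HOXB7 in each diet. From GOM to ULB, 21 of 21 passed (10.8%), from MAD to RAD 12 of 21 (3.78%), and from MAD to ULB 19 of 21 (6.73%), where HOXB3 in NC (edgeR adjusted p = 0.129) and HOXB2 in WG (1.45-fold) did not. These counts include HOXB5 and HOXB8, which were tested because they were high in GOM or MAD. Without them, 12 of 15 tests passed from GOM to RAD, 15 of 15 from GOM to ULB, 6 of 15 from MAD to RAD and 13 of 15 from MAD to ULB. The median log2 fold change of the 5 members detected in all groups from GOM to ULB in NC, WG and WL was -1.42, -1.04 and -1.19, and that of all tested genes was -0.02, 0.00 and -0.01. From GOM to RAD these 5 members had medians of -0.76, -0.91 and -0.83, and all genes 0.00 in each diet.

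**Figure D2:**
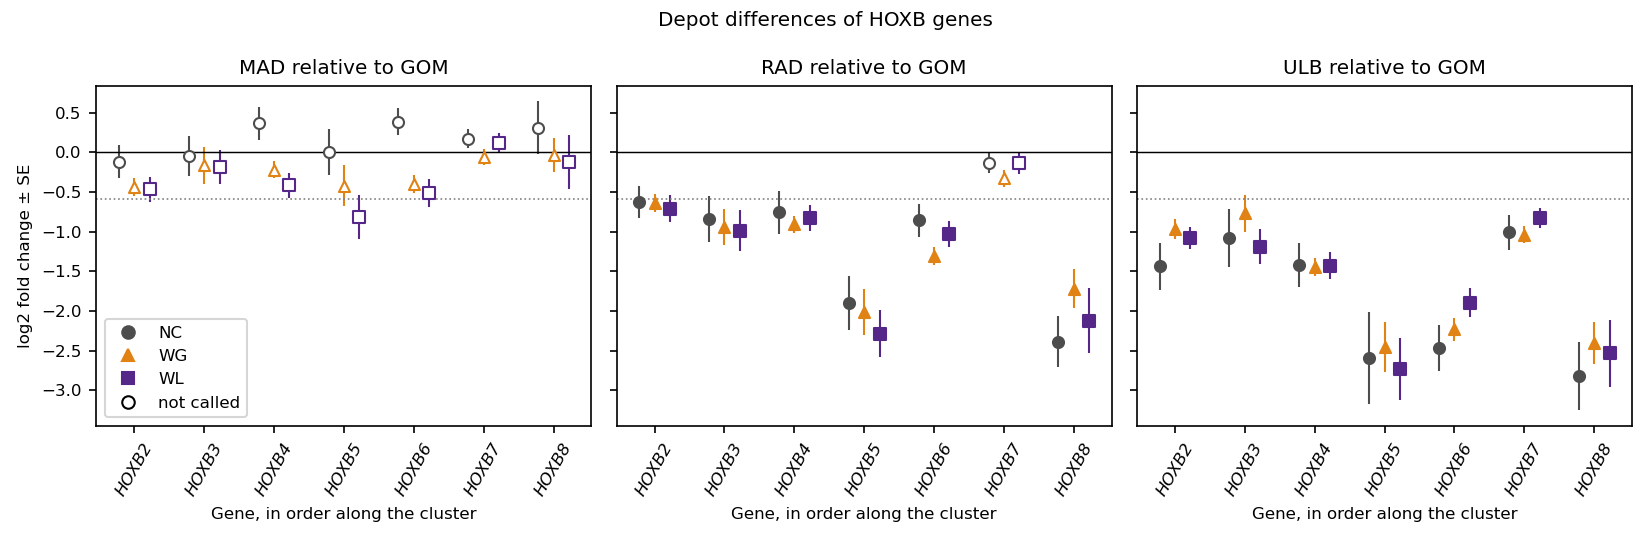
Log2 fold change of each tested member in MAD, RAD and ULB relative to GOM within each diet, with its SE. Filled symbols passed the threshold, open symbols did not, and the dotted line is the fold limit of 1.5. None of the MAD symbols is filled, all of those for ULB are filled and lie below 0, and for RAD those of HOXB7 are open.

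In NC the same replicate number appeared to mark shared samples of GOM and ULB, where 4 numbers were common. With the replicate number as a block on these 4 pairs, HOXB2, HOXB5 and HOXB6 kept their calls from GOM to ULB, with edgeR adjusted p-values of 0.0353, 0.0229 and 0.00983. HOXB3, HOXB4, HOXB7 and HOXB8 kept their direction, with log2 fold changes of -1.41, -1.59, -1.01 and -2.50, and lost the call (edgeR adjusted p = 0.17, 0.0726, 0.0835 and 0.0579). Single NC ULB libraries also decided 3 calls. HOXB7 from RAD to ULB had an edgeR adjusted p of 0.0522 to 0.0712 without replicate 2, 5 or 7, HOXB2 from MAD to ULB 0.0544 to 0.0725 without replicate 7, 9 or 12, and HOXB3 from GOM to ULB 0.0824 and 0.093 without replicate 2 or 7. Without WG GOM replicate 35, HOXB2 from GOM to RAD in WG went from -0.64 to -0.52 on the log2 scale, under the fold limit.

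Library composition moved with the level of part of the cluster within WG. In the 80 WG libraries with a PCG share of 65.6% to 94.4%, the median of HOXB3 was 3.23, 2.91, 1.72 and 2.0 TPM in GOM, MAD, RAD and ULB, and in the other 78 libraries, with a share of up to 96.9%, it was 12.5, 10.3, 5.78 and 5.76 TPM. HOXB5 had medians of 1.49, 1.31, 0.221 and 0.211 TPM in the first set and 5.93, 3.67, 1.41 and 0.730 TPM in the second. HOXB8 had 1.27, 1.32, 0.319 and 0.160 TPM against 4.06, 3.42, 1.31 and 0.647 TPM. HOXB3, HOXB5 and HOXB8 were thus higher in the second set within each AT.

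The other members moved less with that share. HOXB2 had medians of 9.05 and 8.96 TPM in the 2 sets of WG GOM and 4.51 and 4.93 TPM in WG ULB. HOXB6 had 19.9 and 24 TPM in GOM and 3.24 and 4.97 TPM in ULB, and HOXB7 had 24.9 and 29.1 TPM in GOM and 10.9 and 12.5 TPM in ULB. Within each set the GOM median was above the ULB median for these 6 members. From GOM to ULB the log2 fold change of HOXB6 was -2.66 ± 0.223 in the libraries with the lower share and -1.95 ± 0.147 in those with the higher share, and that of HOXB3 was -1.03 in both. The part that composition has in the levels was not tested.

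**Figure D3:**
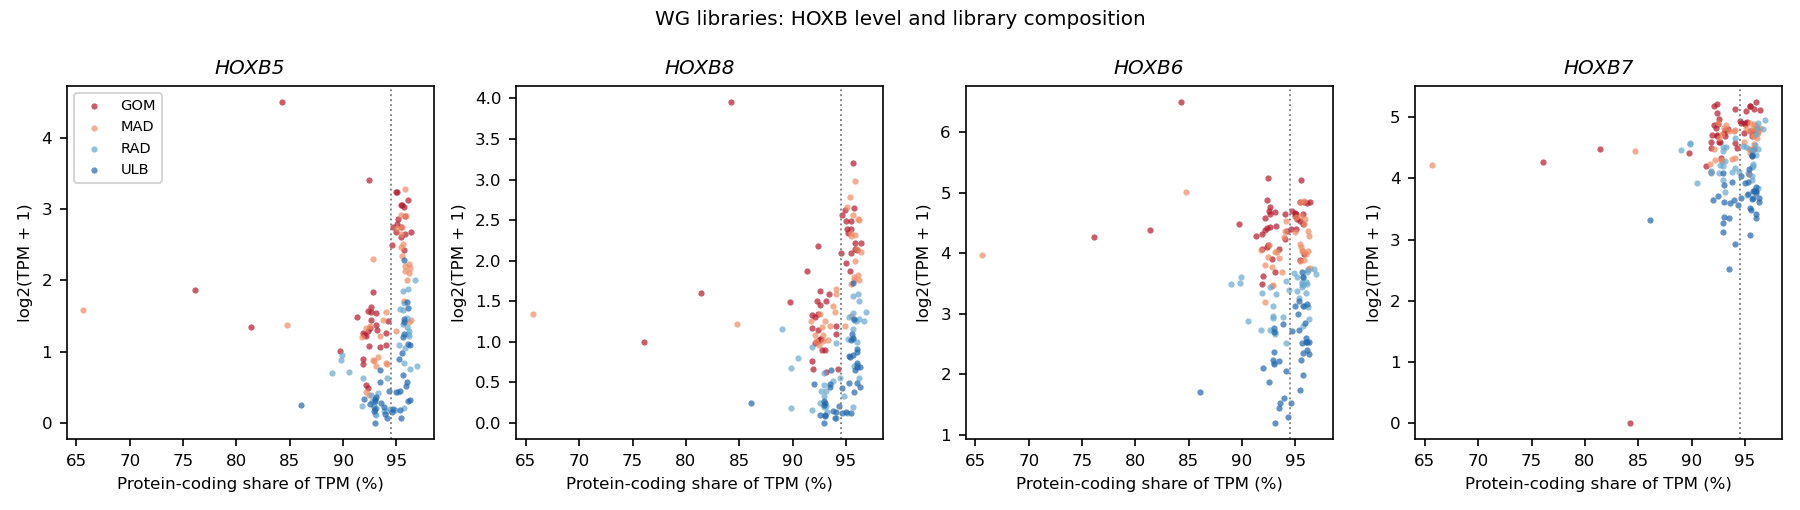
HOXB members in the WG libraries, as log2(TPM + 1), against the share of TPM on PCGs in percent, with points coloured by AT and a dotted line between the 2 sets of libraries, for HOXB5, HOXB8, HOXB6 and HOXB7. HOXB5 and HOXB8 are higher to the right of the line, HOXB6 and HOXB7 differ less, and the point of HOXB7 at 0 is WG GOM replicate 35.

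Between diets within an AT, 10 of 72 tests of the members passed, 4 higher and 6 lower in the second diet, and 17.2% of all tests over all genes did. The members thus passed no more often than genes at large. HOXB4 was higher in WL in 3 comparisons, against WG in RAD and in ULB and against NC in GOM. In RAD it had a median of 4.27 TPM in WG (1.78 to 8.87) and 7.30 TPM in WL (3.58 to 9.52), a log2 fold change of 0.66 (edgeR adjusted p = 0.00229, and 2.24% of genes were higher in WL). In ULB it had 2.73 TPM in WG and 4.81 TPM in WL, a log2 fold change of 0.60 (adjusted p = 0.0102, 3.22% of genes higher). In GOM it went from 6.54 TPM in NC (4.88 to 8.13) to 13.7 TPM in WL (9.17 to 17.8), groups that did not overlap, with a log2 fold change of 0.72 (adjusted p = 0.000394, 15.4% of genes higher). From WG to WL in GOM the log2 fold change was 0.55 with an edgeR adjusted p of 0.0101, under the fold limit, and without WG GOM replicate 35 it was 0.65 and passed.

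HOXB5 was lower in 4 diet comparisons, which fell in GOM and MAD, the ATs where it was detected. In MAD its range was 0.899 to 7.32 TPM in NC with a median of 4.12, 0.316 to 8.72 in WG with a median of 1.96, and 0.624 to 2.77 in WL with a median of 1.36. The log2 fold change was -0.90 from NC to WG (edgeR adjusted p = 0.0328, 5.29% of genes lower), -0.95 from WG to WL (0.0442, 9.17%) and -1.83 from NC to WL (0.000143, 17.8%). In GOM it was -0.99 from NC to WL (0.00227, 20.7%). The NC libraries are shared by these comparisons. In MAD, 19 of 36 WG libraries and 0 of 10 WL libraries had the higher PCG share. The HOXB5 median in WG MAD was 1.31 TPM at the lower share and 3.67 TPM at the higher, beside 1.36 TPM in WL MAD. The part of composition in the change from WG to WL was not tested. HOXB8 in MAD was lower in WG and in WL than in NC, by -0.85 and -1.04 on the log2 scale (adjusted p = 0.019 and 0.0145). HOXB6 in ULB was higher in WL than in NC, with a log2 fold change of 0.98 (adjusted p = 0.0187, 5.39% of genes higher), and its ranges of 1.90 to 3.20 TPM and 3.64 to 12.2 TPM did not overlap.

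HOXB2, HOXB3 and HOXB7 passed in 0 of 36 diet tests by edgeR, with 6 at an unadjusted p below 0.05, and DESeq2 called 1. The diet calls moved with library composition. In the libraries with a PCG share of at least 88%, 3 of the 10 calls were kept, which were HOXB5 from NC to WL in GOM and in MAD and HOXB6 from NC to WL in ULB. HOXB8 from NC to WL in GOM was added, in a comparison left with 2 NC libraries. When WG libraries with the higher share, in which HOXB5 and HOXB8 were higher, were set against NC libraries of at least 88%, a comparison added after seeing the data, the decrease from NC to WG in MAD was -0.23 for HOXB5 and -0.29 for HOXB8 (edgeR adjusted p = 0.57 and 0.504).

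Whether the AT differences changed with diet was tested in 84 contrasts of the 7 members, and 1 passed (2.84% of all contrasts over all genes did), with 7 at an unadjusted p below 0.05. It was HOXB6 between GOM and MAD, which was higher in MAD than in GOM by 0.39 in NC and lower by -0.41 in WG on the log2 scale. The difference of these differences was -0.82 ± 0.238 SE (edgeR adjusted p = 0.0168), and 10.0% of genes passed for this contrast. Of the other 83 contrasts, none was shown to differ between diets, and their intervals were not narrow enough to say that the AT differences were equal.

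The rest of the HOX family was measured with 25 genes outside the cluster, of which 16 were tested from GOM to ULB. In NC, WG and WL, 6, 9 and 9 of these were higher in ULB and 1, 2 and 2 were lower. Of all genes tested, 13.3%, 7.59% and 6.16% were higher in ULB and 12.1%, 10.3% and 9.81% were lower, shares that also apply to the lists that follow. HOXC9 and HOXD8 were higher in ULB by 4.72, 3.0 and 4.06 and by 3.66, 3.18 and 2.55 on the log2 scale. HOXA2, a 3′ gene of the HOXA cluster, was lower by -3.04, -1.99 and -2.54. Over all AT comparisons, 110 of 287 tests of these genes were higher and 32 were lower in the second AT (4.91% and 6.36% of all tests). Each of the 52 calls of the 5 HOXB members detected in all groups was lower. The other HOX genes were not limited to those detected in all groups. In RAD, HOXA10 and HOXA9 exceeded GOM by 5.20 and 5.01 on the log2 scale in NC.

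TALE homeodomain proteins of the PBX and MEIS families bind DNA together with HOX proteins. Of 7 TALE genes tested from GOM to ULB, 6, 5 and 5 were lower and 0 were higher in NC, WG and WL. MEIS1 was lower by -2.69, -2.51 and -2.75 and PBX4 by -1.82, -1.92 and -2.08 on the log2 scale. Retinoic acid induces HOX genes in the embryo, beginning at the 3′ end of a cluster. Of the genes that make, bind or sense it and of the caudal factors, 4 of 12, 3 of 12 and 3 of 13 tested genes were higher in ULB, and 5, 4 and 5 were lower. ALDH1A2, which makes retinoic acid, was lower in ULB by -3.65, -3.57 and -3.34, and CRABP2, which carries it in the cell, was higher by 5.04, 5.30 and 6.16. Of 19 Polycomb and Trithorax genes, whose products keep HOX clusters silent or active, 1 was higher and 1 lower in NC and 0 passed in WG and WL.

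The genes beside the cluster had calls in both directions. Of 166 AT tests of 10 neighbouring genes, 15 were higher and 9 lower in the second AT, where 11.3% of all tests over all genes passed. TTLL6 was higher in ULB than in GOM by 2.15, 1.78 and 2.33 on the log2 scale in NC, WG and WL, and SKAP1, an adaptor of T cells, was lower by -1.59, -0.80 and -1.13.

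Mesothelium covers GOM and MAD. The summed TPM of 5 of its markers (WT1, KRT8, KRT18, CALB2 and BNC1) was 108.2 to 281.7 in NC GOM with a median of 182.7, against 12.4 to 64.8 in NC MAD with a median of 16. The medians in NC RAD and NC ULB were 11.8 and 15.7. In WG the medians were 181.9, 15.4, 11.3 and 12.2 from GOM to ULB. In WL they were 291.4, 18.6, 15.3 and 8.41 in the same order. The median was highest in GOM in each diet. The summed TPM of 5 T cell markers had medians of 38.1, 17.9, 16.2 and 13.5 from GOM to ULB in NC, 46.5, 30.9, 23.5 and 20.5 in WG, and 58.3, 52.3, 25.7 and 22.9 in WL. The ranges of their sums in NC GOM and NC ULB, 23.8 to 56.1 and 11 to 16.3, did not overlap. The summed TPM of 8 macrophage markers was highest in GOM, with medians of 1096, 430.7, 565.4 and 679.1 in NC, 1434, 1015, 928.4 and 901.7 in WG, and 1515, 1269, 1004 and 1189 in WL. For 7 adipose progenitor markers the medians were 2271, 1653, 1586 and 3094 in NC, 2330, 2498, 1869 and 2291 in WG, and 2152, 1618, 1761 and 1659 in WL. The part of mesothelium, T cells, macrophages and progenitors in the HOXB levels was not tested.

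Over the 12 group means of log2(TPM + 1), the members followed each other with Pearson's r from 0.641 for HOXB4 and HOXB5 to 0.977 for HOXB3 and HOXB8, and r was 0.951 for HOXB2 and HOXB6. These values are descriptive, since the groups share libraries' depth and composition. For HOXB6, the 5 genes outside the cluster with the most similar group means were LRRC3B (r = 0.961), ASTN2 (0.952), TCP11L1 (0.949), MINDY3 (0.948) and a gene without a symbol, ENSSSCG00000000540 (0.946), each over 12 means.

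H3K27ac marks active promoters and enhancers, and the enhancer tables list regions stitched from ChIP peaks and ranked by signal, the strongest being marked as super-enhancers. In 17 of 18 tables a super-enhancer covered HOXB2 through HOXB5, and this count did not move with a flank of 0, 10 or 50 kb. Its length was 86.4 to 175.4 kb in the 5 GOM tables, 77.6 to 102.8 kb in the 5 MAD tables, 66.2 to 105.2 kb in the 4 RAD tables and 60.2 to 88 kb in 3 ULB tables. In NC the super-enhancer joined 9, 3, 7 and 4 peaks in GOM, MAD, RAD and ULB, and in WG and WL it was 1 peak. Its length and ends therefore depend on how peaks were joined. Its rank by signal within a table was 42 to 176 in GOM, 41 to 107 in MAD, 89 to 579 in RAD and 262 to 459 in ULB, with 1 as the strongest. The ratio of ChIP to input signal was 2.76 to 6.07, 2.91 to 6.61, 2.18 to 5.85 and 1.88 to 4.24 in the same order. The ranks of ULB were thus lower than those of GOM and MAD in every table, while the ratios overlapped. The remaining table, of 1 WG subgroup in ULB, split the domain into 5 regions over the genes, none a super-enhancer and the best ranked 1209. The tables held 1 to 11 ChIP samples each, with 1 in NC MAD and in 1 WG subgroup of RAD. Each gives 1 value per region, so there is no replicate behind these values and no test was made.

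The 5′ edge of the domain differed between tables. The super-enhancer ended between chr12 positions 24877599 and 24882199 in GOM, within or close beyond HOXB8, and between 24868999 and 24877399 in MAD, within HOXB8. In RAD it ended between 24861599 and 24881799 and in ULB between 24853199 and 24881199, and the furthest end of each, in the NC table, lay beyond HOXB8. Separate regions that were not super-enhancers lay over part of HOXB8 past the end in WL ULB (24870201 to 24882199), WL RAD (24871801 to 24877399) and a WG subgroup in RAD (24874401 to 24900999). Ends in NC, where peaks were joined, are thus not alike in kind to those in WG and WL. The RefSeq start of HOXB5 lay in an acetylated region in 17 tables, that of HOXB6 in 16 and that of HOXB7 in 14, and the sequences printed above lie next to the first 2 of these starts. HOXB8 was overlapped in 16 of 18 tables, HOXB1 in 8 and HOXB13 in 2. A further region at 24.9 Mb, between HOXB8 and HOXB13, was present in 12 tables.

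**Figure D4:**
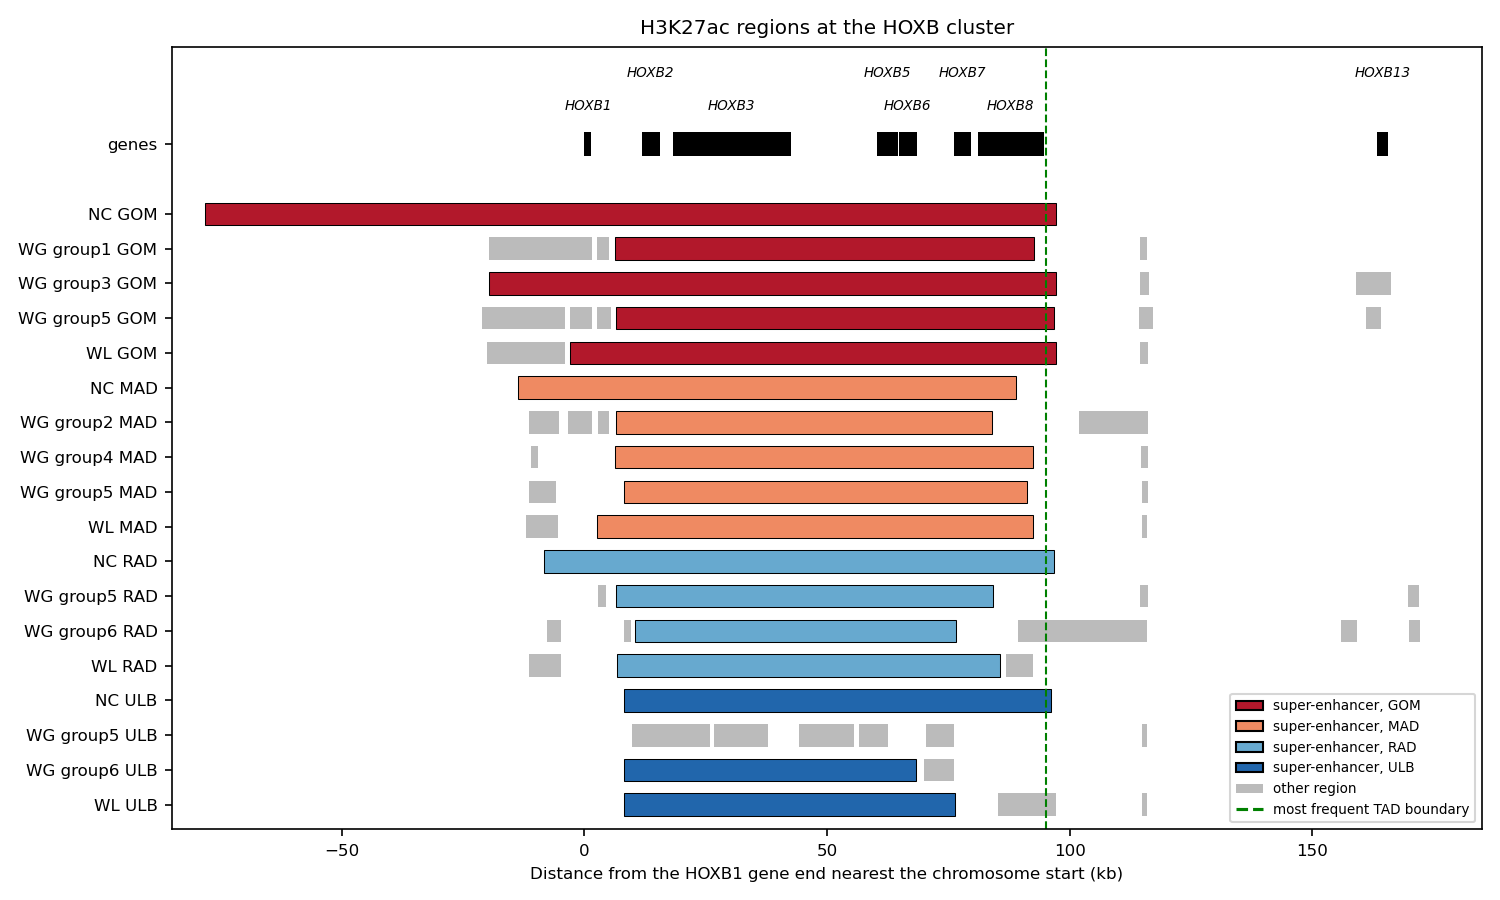
H3K27ac regions over the HOXB cluster, one line per pooled table, in kb from the end of HOXB1 nearest the chromosome start. Coloured bars are super-enhancers by AT, grey bars other regions, black bars genes, and the dashed line is the most frequent boundary of the domains described further on. The domain covers HOXB2 to HOXB5 in 17 of the 18 tables, its right edge varies, and HOXB13 at the right lies mostly outside.

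The A-B index is a score per 20-kb bin from the Hi-C maps, positive in the open A compartment and negative in the closed B compartment. All 9 bins of the span were positive in 240 of 240 samples. Their medians over samples ran from 2.61 to 3.93, and the highest was that of the bin chr12:24800001-24820000, which holds the start of HOXB2 and most of HOXB3. HOXB1 and HOXB13, which had almost no transcripts, lay in A bins as well.

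Between ATs, 45 of 162 bin tests passed limma at an adjusted p below 0.05, where 29.2% of all bins did, with 18 higher and 27 lower in the second AT. Between diets, 31 of 108 passed against 18.6% of all bins, with 23 higher and 8 lower. After quantile normalization between samples 14 passed, 0 of them higher and 14 lower, so the direction of the diet calls depended on the normalization. The AT calls were then 21 higher and 33 lower. The bin chr12:24840001-24860000, which holds HOXB5 and HOXB6, passed in 8 of 18 AT and 6 of 12 diet comparisons. It is described because it had the most AT calls of the 9 bins, so it was picked from these same tests. Its index in NC GOM, MAD, RAD and ULB was 3.53 ± 0.54, 3.07 ± 0.38, 2.67 ± 0.39 and 2.61 ± 0.18 (mean ± SD). In WL it was 3.52 ± 0.47, 3.72 ± 0.26, 3.27 ± 0.31 and 2.70 ± 0.44. Its order in these diets was that of the expression medians in that ULB was lowest. In WG it was 3.37 ± 0.46, 3.30 ± 0.35, 2.90 ± 0.33 and 3.34 ± 0.46, so RAD was lowest and ULB was close to GOM.

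The index of that bin was lower in ULB than in GOM by -0.92 ± 0.253 SE in NC (limma adjusted p = 0.015, 23.5% of bins passed) and by -0.82 in WL (0.00402, 29.3%), and lower in ULB than in MAD by -1.02 ± 0.170 in WL (0.000407, 14.7%). In NC that bin was the only one of the 9 to pass from GOM to ULB. The median difference of the 9 bins was -0.13, against 0.03 over all bins. From MAD and from RAD to ULB in NC, 1 bin each passed and was higher in ULB. In WG the index of the bin with HOXB5 and HOXB6 was higher in ULB than in RAD by 0.44 (limma adjusted p = 2.29e-05, 58.3%). In WG, RAD was below GOM (56.8% of bins passed) and below MAD (18.4%) in 7 of the 9 bins each by the test, and below ULB in 8. From WG to WL in ULB, 8 of 9 bins were lower by the test, with a median of -0.51 against -0.02 over all bins, and 33.4% of bins passed. Over the 12 group means, the index of the bin at a gene's start and its log2(TPM + 1) had r of 0.19 for HOXB2, 0.84 for HOXB3, 0.51 for HOXB5, 0.66 for HOXB6, 0.54 for HOXB7 and 0.76 for HOXB8, given as a description of 12 points whose Hi-C and RNA samples differ in preparation.

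**Figure D5:**
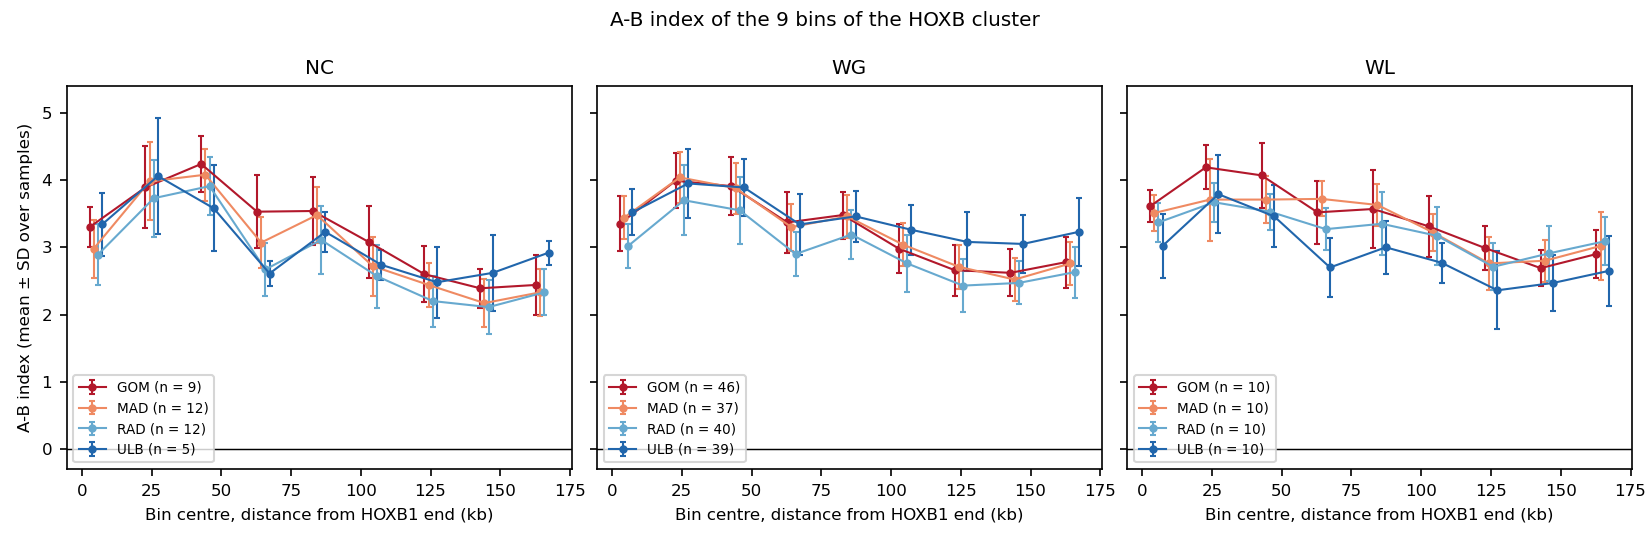
A-B index of the 20-kb bins across the HOXB span by AT and diet, as group means with SD. All bins are above 0, and the bin with HOXB5 and HOXB6 is lowest in ULB in NC and WL and in RAD in WG.

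Topologically associating domains (TADs) are stretches of chromatin that contact themselves more than their surroundings. A TAD boundary was called inside the HOXB span in 240 of 240 samples (exact binomial 95% interval from 98.5%, which treats samples as independent although ATs share pigs). It lay at chr12 position 24880000, just past the 5′ end of HOXB8, in 186 samples (77.5%), and anywhere between HOXB8 and HOXB13 in 213. The other positions were 24900000 in 21 samples, 24840000 and 24860000 in 14 each, and 24920000 in 6. By group the share at the most frequent position ranged from 50% (6 of 12 NC MAD samples, exact interval 21.1% to 78.9%) to 100% (5 of 5 NC ULB samples). The boundary thus lay between HOXB13 and the transcribed members that have a position in most samples of each AT. HOXB9 had no row and no position here, so its side of the boundary is not known. LOC100523635 (chr12:24889251-24901815), a minus-strand gene between HOXB8 and HOXB13, was not analysed.

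CTCF, which binds DNA at many TAD boundaries, recognises a longer motif, of which a core was searched on both strands. The span held 4 matches, and 21.2% of 121753 bins of 20 kb in the genome held one. The match nearest to the most frequent boundary lay 5791 bases from it at chr12:24885791-24885802, on the plus strand, and is shown with 6 bases on either side and the match in capitals.
CTCF-like: tttgtcCCACTAGGGGGCcctaga
A match of letters does not show that CTCF was bound.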

How the data were processed

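RNA-seq, Hi-C and H3K27ac ChIP-seq were analysed from the authors' deposited files. The authors estimated transcript abundance with kallisto 0.43.0, per the submitters' processing notes, and deposited estimated counts and TPM per gene. Of the counts of PCGs, 17.8% were 0 and 0.0% of the others were whole (tolerance 1e-09), so counts were rounded. The deposited A-B index score per 20-kb bin came from Hi-C matrices that the authors balanced and normalized between samples, and it carries no depth per bin. The deposited TAD calls are positions. The deposited H3K27ac tables hold the authors' signal of stitched regions in pooled ChIP and input reads, with BWA 0.7.15, SAMtools 1.3.1 and SICER named in the notes. In each of the count and index tables, 9 columns matched no sample label and were not used. No columns of the authors' own comparisons were used.

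PCGs that exceeded 0.5 TPM in 80% or more of either group's libraries were tested with edgeR 4.0.16 (TMM, quasi-likelihood test, 2-sided) in R 4.3.3, with 1 fit per comparison (13346 to 14440 genes), a call being a Benjamini-Hochberg adjusted p under 0.05 with a change of over 1.5-fold. Diet dependence was tested as an interaction over all libraries (15068 genes). Folds are from edgeR's model, and levels are TPM or log2(TPM + 1). The index was tested over 113298 bins with limma 3.58.1. No test was made on H3K27ac or TADs. On simulated counts for WG GOM and ULB (13705 genes), edgeR recovered 88.0% of genes changed by 1.5-fold, 96.0% by 2.0-fold and 100.0% by 4.0-fold and 8.0-fold. Recovery here meant an adjusted p under 0.05 in the right direction, without the fold limit of a call. The genes changed by 1.5-fold had a median absolute log2 fold change of 0.58, so the fold limit would lower their share. Smaller groups were not simulated. Precision comes from the spread between libraries, and intervals of shares cover counting error only.

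Groups came from the sample labels. The ATs share pigs, but no source states that a replicate number marks a pig. After group means were removed, all same-numbered pairs correlated above 0.1 in 4 of 18 AT comparisons (NC GOM with ULB, WG MAD and RAD with ULB, WL MAD with RAD) and in 0 for the index. By this rule the numbers were taken as pairs there, while the main tests had no block. The rule can turn on a single pair. WG GOM with ULB did not meet it, with 37 of 38 pairs above 0.1 and a median r of 0.603. NC GOM with ULB met it with a median r of 0.128 over 4 pairs. Alternatives were DESeq2 1.42.0, another normalization, no detection filter, a term for the PCG share, only libraries of at least 88% share, a replicate block, 1 fit over all libraries and each NC ULB library left out.

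All members with a row were named. Other lists were given by counts with the 2 called members of largest change, and the genes most like the member of widest range by Pearson's r. Members and lists were chosen with earlier results of these data known. Reference sequences are from RefSeq (Sscrofa11.1). A further reference sequence is not reported here.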

Additional observations from a re-analysis of the deposited data

Results flagged for a closer look

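Among the 42 groups of 4 to 10 libraries that were examined for the tested members, 2 had a library far from the others, and about 1 in 20 such groups is expected to by chance. Both were the same library. WL ULB replicate 6 had 12.2 TPM of HOXB6, where the next library of its 10 had 7.90, and 18.2 TPM of HOXB7, where the next had 14.9. HOXB6 also differed between diets in its difference between GOM and MAD, with a difference from NC to WG of -0.82 on the log2 scale (edgeR interaction test, adjusted p = 0.0168).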

How the results depend on the processing

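No expression call of the members reversed under any alternative that was run. The 76 calls between ATs became 78 with DESeq2, 78 without the detection filter (3 of them higher in the second AT, in HOXB1 and HOXB13 at near-zero counts), 70 with a term for the PCG share, 72 in 1 fit over all libraries, 69 with the replicate block and 51 in libraries of at least 88% share. That share leaves 2 libraries in NC GOM, 3 in NC ULB and 4 each in WL GOM and WL MAD. With each NC ULB library or WG GOM replicate 35 left out, the calls numbered 73 to 75. The 10 calls between diets became 4 in libraries of at least 88% share, 8 with the term for the PCG share, 9 in 1 fit over all libraries, 11 with DESeq2, 12 without the filter, 13 with the WG libraries of higher share and 10 to 11 with a library left out. With the WG libraries of higher share, 1 of the original calls that involve WG was kept and 4 were lost. The 13 thus include calls that the main setting did not make. The 1 interaction became 2 with the term for the PCG share (HOXB4 was added), 5 without the filter (4 of them HOXB13 at near-zero counts), 4 with the replicate block (HOXB6 and HOXB2) and 1 to 2 with a library left out, 2 being without WG GOM replicate 35. For the A-B index, the 45 calls between ATs became 54 after quantile normalization, 41 with the replicate block, 43 to 46 with a library left out and 4 when a difference above 0.75 was also required. The 31 calls between diets (23 higher and 8 lower) became 14 after quantile normalization (0 higher and 14 lower), 29 to 33 with a library left out and 2 with a difference above 0.75. Where the numbers did not meet the rule for pairs, the replicate block ended 4 calls. These were HOXB4 from GOM to RAD in NC (edgeR adjusted p = 0.0541), HOXB6 and HOXB7 from RAD to ULB in NC (0.128 and 0.217) and HOXB2 from MAD to ULB in WL (by its fold). Where the numbers met the rule, the block changed no call but those of NC GOM and ULB. Alternatives on WG composition and on WG GOM replicate 35 were chosen after seeing the data. Shallow counts limit HOXB1 and HOXB13, and the 5 NC ULB and 9 NC GOM libraries limit the NC comparisons.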
